A study of Mus musculus with 6 samples.

Results

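The genes described here are the ligands, receptors and binding proteins of the insulin-like growth factor (IGF) system, 10 genes of the 19505 genes measured on 6 Affymetrix arrays of cultured mouse heart cells. They are the ligands Igf1 and Igf2, the receptors Igf1r and Igf2r, and the binding proteins Igfbp2, Igfbp3, Igfbp4, Igfbp5, Igfbp6 and Igfbp7. They were taken by symbol from the array's probe annotation, and each had 1 probe set, for example TC1100002195.mm.2 for Igfbp3 and TC0100002562.mm.2 for Igfbp5. IGF1 and IGF2 are secreted growth factors that signal through the receptor tyrosine kinase IGF1R, whereas IGF2R, the cation-independent mannose 6-phosphate receptor, takes up IGF2 for breakdown in lysosomes. The binding proteins hold IGFs outside the cell, prolong their life and limit or deliver them to the receptor, and proteases that cut the binding proteins release the ligand. In the heart, IGF1 is known for promoting growth and survival of cardiomyocytes, and fibroblasts and macrophages are known sources of it.

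Cardiac fibroblasts (CF), the matrix-producing cells, and cardiomyocytes (CM), the contractile cells, had each been kept for 48 h with the secretome, that is the released products, of Ccrl2+ macrophages, with that of Ccrl2- macrophages, or with phosphate-buffered saline (PBS), which the sample titles call sham. All samples were from C57BL/6N mice aged 15 to 16 weeks, per the labels. The macrophages came by sorting from wild-type hearts, 6 of them pooled, taken 1 week after TAC (transverse aortic constriction, an operation that overloads the left ventricle). The source labels name the secretome while the protocols name the macrophages themselves as the partner in culture, and the source labels were followed. There was a single array in each of the 6 groups. Differences below therefore carry no error and no p-value, and precision is limited by the number of arrays.

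Levels are given as log2 probe set values, a difference of 1 is 2-fold, and levels of different genes are not compared because their probes differ. A gene was counted in a comparison when its higher value reached a floor of 6.55 (the median over every named probe set value) with a difference of at least 2-fold. Of the 60 values of the IGF genes, 2 lay below the floor, both of Igfbp5 in cardiomyocytes. As a further mark of low signal, the 95th percentile of each array's negative controls lay between 10.2 and 10.74. In all, 15 of the 60 values lay below it, namely those of Igfbp3, Igfbp4, Igfbp5 and Igfbp6 on the 3 cardiomyocyte arrays, Igfbp6 on the Ccrl2- secretome and PBS arrays of fibroblasts, and Igfbp2 on the Ccrl2+ secretome array of fibroblasts. Pathway and marker genes are not in this count, and several of their values given below also lay under that percentile. Negative controls themselves differed by at least 2-fold in 13.1% to 19.7% of those past the floor between pairs of fibroblast arrays, in 12.9% to 17.7% between pairs of cardiomyocyte arrays and in 30.6% between the PBS arrays of CF and CM. Pairs of cardiomyocyte arrays correlated at 0.995 to 0.996 across genes and pairs of fibroblast arrays at 0.973 to 0.986. The arrays carried the markers of their labelled cells. The 8 cardiomyocyte markers were all at least 2-fold lower in CF than in CM with PBS, and 7 of 8 fibroblast markers were at least 2-fold higher. Each culture also carried markers of the other. With PBS, 7 of 8 fibroblast markers were at or above the floor in CM, and 7 of 8 cardiomyocyte markers in CF. Of the fibroblast markers, Dcn lay at 15.34 in CM against 17.53 in CF, and Postn at 13.64 against 16.05.

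In the fibroblast cultures the largest differences from PBS were those of the binding protein genes Igfbp5 and Igfbp3, while Igfbp2 and Igfbp7 stayed under 2-fold. Igfbp3 was higher and Igfbp4 lower with both secretomes than with PBS, Igfbp5 was far higher with the Ccrl2- secretome, and Igfbp6 was higher with the Ccrl2+ secretome and lower with the Ccrl2- secretome. The ligand gene Igf1 was lower with the Ccrl2- secretome, and neither receptor gene differed by 2-fold from PBS. In the cardiomyocyte cultures the only gene of the 10 at 2-fold between any pair of arrays was Igfbp2, which was lower with the Ccrl2- secretome than with PBS. The comparisons ask what the products of each macrophage population do to the 2 heart cell types. Both comparisons with PBS in a cell type use the same PBS array, so a chance value on that array enters both.

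**Figure D1:**
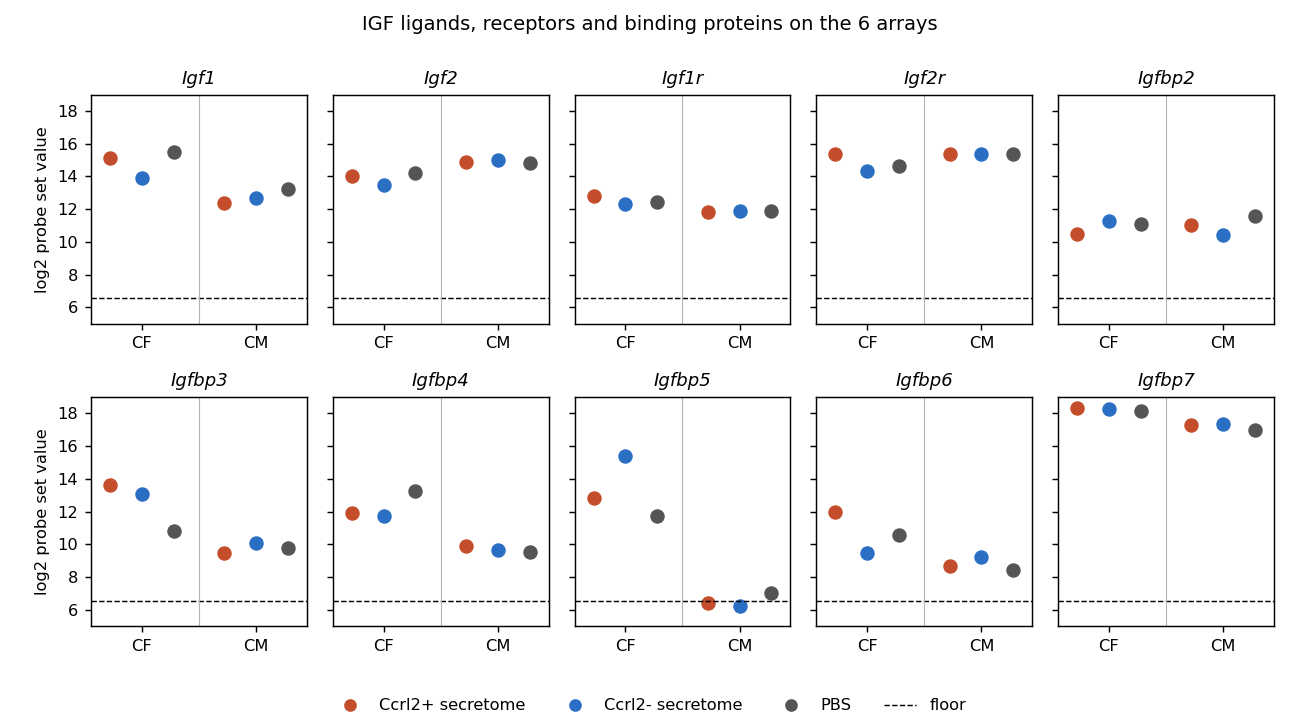
Each panel shows the log2 probe set value (vertical axis) of 1 gene on the 6 arrays, with cardiac fibroblasts (CF) left and cardiomyocytes (CM) right, 1 point per array and the floor of 6.55 as a dashed line. Igfbp5 ranges over 9.18 log2 units, the widest of the 10 genes, and Igf1r over 1.0, the narrowest.

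With the Ccrl2+ secretome, 3 of the 10 IGF genes were at least 2-fold higher in fibroblasts than with PBS (Igfbp3, Igfbp5 and Igfbp6) and 1 was at least 2-fold lower (Igfbp4). Of all 10042 genes that reached the floor, 4.87% passed 2-fold upwards and 6.13% downwards, 11% in all. The median difference of the 10 genes was 0.28, against -0.07 over all genes. With the Ccrl2- secretome, 2 IGF genes were at least 2-fold higher (Igfbp3 and Igfbp5) and 3 lower (Igf1, Igfbp4 and Igfbp6), where 6.18% of 10057 genes were higher and 4.83% lower, again 11% in all. Here the median of the 10 was -0.21, against -0.09 over all genes. Between the secretomes, 3 IGF genes were at least 2-fold higher with Ccrl2+ (Igf1, Igf2r and Igfbp6) and 1 lower (Igfbp5), against 8.55% and 10.1% of 10144 genes, 18.6% in all, with a median of 0.53 against 0.0. The Ccrl2+ secretome array of fibroblasts also had higher values of the 4 poly-A spike-in transcripts, by a median of 0.61 over PBS and 0.89 over the Ccrl2- secretome array, and the part of this in the differences was not tested. Cardiomyocyte markers were higher on it too: 3 of the 7 past the floor were at least 2-fold above PBS (Myh6, Actn2 and Myl2). The log2 of the summed level of all 8 was 17.1 with the Ccrl2+ secretome and 15.17 with the Ccrl2- secretome, against 16.17 with PBS. Tnnt2 carried most of that sum (17.03 and 15.08, against 16.12). With the Ccrl2- secretome Tnnt2 was the only marker past 2-fold against PBS, and the median of the list was -0.11. Of the mural cell markers 0 of 4 past the floor reached 2-fold between any pair of fibroblast arrays, and the 2 Schwann cell markers on the array were below the floor on all 6 arrays.

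**Figure D2:**
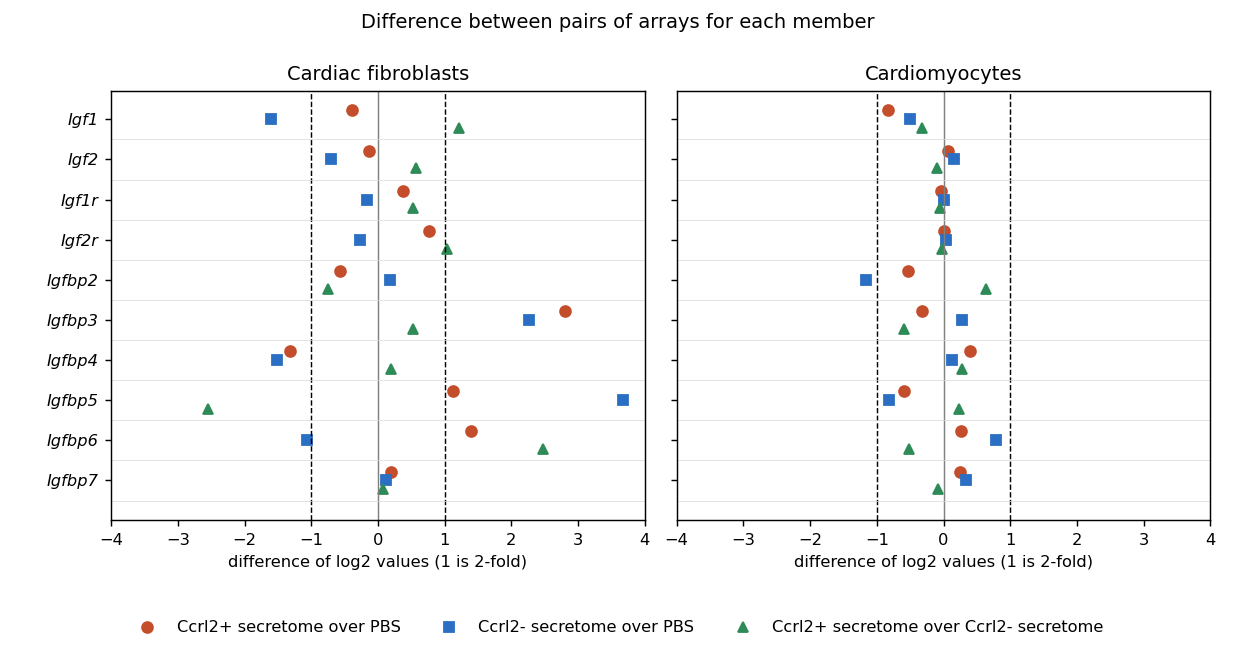
Difference of log2 values (horizontal axis) for each of the 10 genes, in cardiac fibroblasts (left) and cardiomyocytes (right), for the Ccrl2+ secretome over PBS, the Ccrl2- secretome over PBS and the Ccrl2+ over the Ccrl2- secretome, each from 1 pair of arrays. Dashed lines mark 2-fold. The largest distance is that of Igfbp5 with the Ccrl2- secretome in fibroblasts, 3.67, and in cardiomyocytes only Igfbp2 with the Ccrl2- secretome, at -1.16, passes a line.

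Igf1 encodes the main growth factor of the system. In fibroblasts its log2 level was 15.13 with the Ccrl2+ secretome and 13.92 with the Ccrl2- secretome, against 15.52 with PBS. The Ccrl2- secretome array was thus 3.03-fold lower than PBS, a difference of -1.6, and 101 of 10057 genes lay as far or farther below PBS. The Ccrl2+ secretome array was 1.31-fold lower than PBS and 2.31-fold higher than the Ccrl2- secretome array. In cardiomyocytes Igf1 lay at 12.38 with the Ccrl2+ secretome and 12.7 with the Ccrl2- secretome, against 13.21 with PBS. These are differences of -0.83 and -0.51, both short of 2-fold, although only 1.24% of genes lay as far below PBS with the Ccrl2+ secretome and 6.64% with the Ccrl2- secretome. In each cell type the PBS array had the highest Igf1 level, and all fibroblast arrays lay above all cardiomyocyte arrays. With 1 array each, it cannot be said which neighbours in this order differ beyond their spread.

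Macrophage transcripts moved alongside Igf1 on some of these arrays. In cardiomyocytes, of 9 macrophage markers that reached the floor, 6 were lower by 2-fold or more with the Ccrl2+ secretome than with PBS, with a median of -1.02. With the Ccrl2- secretome all 9 were lower, 0 of them by 2-fold, with a median of -0.69. The log2 of the summed level of the 10 macrophage markers on the array was 13.79 with the Ccrl2+ secretome and 14.23 with the Ccrl2- secretome, against 14.77 with PBS. In fibroblasts it was 15.22, 14.63 and 14.6 in the same order of conditions. There the complement genes C1qa (9.42 against 11.22) and C1qc (8.11 against 9.84) and the mannose receptor gene Mrc1 (11.04 against 12.76) were lower with the Ccrl2- secretome than with PBS, while Lyz2 (13.84 against 12.52) and Cd14 (11.3 against 8.54) were higher. With the Ccrl2+ secretome 7 of the 10 macrophage markers lay above PBS and 3 below it, with a median of 0.44. C1qa reached 12.12 and Mrc1 13.47, above PBS. Csf1r (11.13 against 11.95) and Cd14 (7.28 against 8.54) were among the 3 below it, and Igf1 was slightly below PBS too. The part of macrophage RNA in the Igf1 values was not tested, and in a culture fewer cells of a type and less RNA per cell cannot be told apart.

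Igf2, the second ligand gene, is imprinted and is best known as a fetal growth factor. Its log2 level in fibroblasts was 14.05 with the Ccrl2+ secretome and 13.48 with the Ccrl2- secretome, against 14.19 with PBS, and in cardiomyocytes 14.88 and 14.98, against 14.82. The largest difference between conditions was -0.71 for the Ccrl2- secretome over PBS in fibroblasts, and 10.6% of genes lay as far below PBS. Unlike Igf1, Igf2 was lower on every fibroblast array than on every cardiomyocyte array.

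The receptor genes had the smallest ranges of the 10 over all 6 arrays, 1.0 for Igf1r and 1.04 for Igf2r, although within fibroblasts Igf2, Igfbp2 and Igfbp7 varied less than Igf2r. Igf1r, the signalling receptor, lay at 12.83 with the Ccrl2+ secretome and 12.3 with the Ccrl2- secretome in fibroblasts, against 12.46 with PBS. In cardiomyocytes it was nearly level at 11.83 and 11.88, against 11.87. Igf2r, which clears IGF2, lay at 15.38 with the Ccrl2+ secretome and 14.35 with the Ccrl2- secretome in fibroblasts, against 14.62 with PBS, and at 15.36 and 15.39 in cardiomyocytes, against 15.36. It was 2.04-fold higher with the Ccrl2+ than with the Ccrl2- secretome in fibroblasts, just past the threshold, and 8.09% of genes were at least as far higher. The enzyme and receptor genes of mannose 6-phosphate sorting, the route that IGF2R serves, were M6pr, Gnptab, Gnptg and Nagpa. All 4 were past the floor and 0 of them differed by 2-fold in any of the 7 comparisons, where 0.31% to 30.8% of all genes did. In the fibroblast comparison of the secretomes their median was 0.42.

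The binding protein genes that differed in fibroblasts are shown with the sequence before their start, since these are the genes on which the fibroblast results turn, and Igf1 is added as their ligand. All 10 genes matched the RefSeq promoter table of build GRCm38.p6, with 14 listed starts. The 250 bases before the start are given 5′ to 3′ on the strand of the gene. Capitals mark matches, on either strand, to the TATA box TATAAA, its variant TATATA, the similar A- and T-rich motif TATTTAAA, the GC box GGGCGG, the E-box CACGTG or the AP-1 motif TGANTCA. The variant and the A- and T-rich motif were added after these sequences had been read.
Igfbp3, chr11:7213924-7214173, minus strand: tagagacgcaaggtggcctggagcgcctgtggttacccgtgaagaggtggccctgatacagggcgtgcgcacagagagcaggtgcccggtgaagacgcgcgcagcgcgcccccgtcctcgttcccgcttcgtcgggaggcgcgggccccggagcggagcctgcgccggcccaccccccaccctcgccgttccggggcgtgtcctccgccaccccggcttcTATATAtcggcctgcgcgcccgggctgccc
Igfbp4, chr11:99040994-99041243, plus strand: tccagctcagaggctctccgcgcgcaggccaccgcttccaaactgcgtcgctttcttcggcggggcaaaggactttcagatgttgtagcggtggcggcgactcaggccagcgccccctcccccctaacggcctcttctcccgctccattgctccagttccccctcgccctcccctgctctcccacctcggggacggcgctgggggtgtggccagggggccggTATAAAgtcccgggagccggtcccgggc
Igfbp5, chr1:72874866-72875115, minus strand: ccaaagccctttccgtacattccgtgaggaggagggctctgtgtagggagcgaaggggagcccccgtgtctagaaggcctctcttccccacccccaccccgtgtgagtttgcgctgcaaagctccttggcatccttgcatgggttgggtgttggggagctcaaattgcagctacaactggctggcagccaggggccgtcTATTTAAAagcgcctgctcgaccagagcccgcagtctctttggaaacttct
Igfbp6, chr15:102143936-102144185, plus strand: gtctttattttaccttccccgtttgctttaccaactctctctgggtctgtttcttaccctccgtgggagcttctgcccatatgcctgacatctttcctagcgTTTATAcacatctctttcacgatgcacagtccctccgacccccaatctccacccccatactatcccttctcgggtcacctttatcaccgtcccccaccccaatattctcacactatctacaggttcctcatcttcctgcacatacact
Igf1, chr10:87860861-87861110, plus strand: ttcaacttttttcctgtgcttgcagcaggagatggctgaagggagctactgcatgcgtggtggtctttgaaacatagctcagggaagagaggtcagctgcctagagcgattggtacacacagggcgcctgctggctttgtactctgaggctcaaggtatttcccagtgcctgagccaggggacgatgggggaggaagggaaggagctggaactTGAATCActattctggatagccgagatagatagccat

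In this window Igfbp3 had TATATA from 30 to 25 bases before the start, a motif found in 5.25% of the 32851 promoter windows of the same length. Igfbp4 had TATAAA from 28 to 23 bases before the start, a motif of 12.4% of windows, and Igfbp5 had TATTTAAA from 51 to 44 bases before it, a motif of 1.71%. These are the letters of TATA-type elements, which commonly lie close upstream of a start. Because TATATA and TATTTAAA were added after these windows had been read, their matches here were fixed in advance. The shares count a match at any place in the window on either strand, and for these motifs they carry no weight. Igfbp6 had TATAAA only on the opposite strand, from 148 to 143 bases before the start, and Igf1 had the AP-1 letters TGAATCA from 37 to 31 bases before it, a motif of 6.75% of windows. GGGCGG, present in 32.7% of windows, was found in none of these 5 windows and in at least 1 window of Igf2, Igf1r, Igf2r, Igfbp2 and Igfbp7. The G and C content was 73.2% for Igfbp3 and 49.6% for Igfbp6, with a median of 52.4% over all windows. CACGTG, present in 6.02% of windows, was found only in windows of Igf2r and Igfbp2 among the 10 genes. An NF-kB motif was searched as well, and its letters were in 0.356% of windows and in 0 of those of the 10 genes, which says only that they are not in these windows.

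Igfbp3 encodes the main carrier of IGFs in blood, where it binds them together with the acid-labile subunit. In fibroblasts it lay at 13.6 with the Ccrl2+ secretome and 13.07 with the Ccrl2- secretome, against 10.8 with PBS. Both secretome arrays were well above PBS, by 6.96-fold and 4.82-fold. Among all genes, 54 of 10042 were as far above PBS with the Ccrl2+ secretome (0.538%) and 256 of 10057 with the Ccrl2- secretome (2.55%). Between the secretomes Igfbp3 differed by 0.53. In cardiomyocytes it lay at 9.47 and 10.06, against 9.79, all within the range of the negative controls. Its nearest neighbour gene on chromosome 11, Igfbp1, was below the floor on all 6 arrays, at no more than 4.41.

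Igfbp4 encodes a binding protein that restrains IGFs until it is cut by pregnancy-associated plasma protein A (PAPP-A). In fibroblasts it lay at 11.92 with the Ccrl2+ secretome and 11.72 with the Ccrl2- secretome, against 13.24 with PBS, so both secretome arrays lay below PBS, by 2.5-fold and 2.87-fold. As far below PBS lay 3.33% of genes with the Ccrl2+ secretome and 1.18% with the Ccrl2- secretome. The secretomes differed by only 0.2. In cardiomyocytes it lay at 9.91 and 9.63, against 9.51.

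The gene of its protease, Pappa, was lower on the same arrays. It lay at 10.36 with the Ccrl2+ secretome and 10.86 with the Ccrl2- secretome in fibroblasts, against 12.27 with PBS, which is 3.76-fold and 2.66-fold lower. On the cardiomyocyte arrays Pappa lay just below the floor, at 6.54 and 6.41, against 6.46. Stanniocalcins, the products of Stc1 and Stc2, are inhibitors of PAPP-A. Stc2 was 2.91-fold higher with the Ccrl2+ secretome than with PBS in fibroblasts (13.52 against 11.98) and 3.66-fold higher than with the Ccrl2- secretome (11.65). Stc1 was 3.01-fold higher with the Ccrl2+ than with the Ccrl2- secretome (10.77 against 9.18) and did not reach 2-fold against PBS (10.14) with either. Htra1, a serine protease that cuts matrix proteins and IGF binding proteins, was 2.5-fold lower with the Ccrl2+ secretome than with PBS (12.41 against 13.73). Adam12, a metalloprotease gene, was 2.07-fold lower with the Ccrl2+ than with the Ccrl2- secretome (9.09 against 10.14). Some of these fibroblast values lay below the control percentile of their arrays (10.67 with Ccrl2+, 10.69 with Ccrl2-, 10.74 with PBS). They were both Adam12 values, Pappa with the Ccrl2+ secretome, and Stc1 with the Ccrl2- secretome and with PBS. The folds that rest on them are uncertain. Of the 8 genes listed as proteases of binding proteins and their inhibitors, 7 were on the array and 5 past the floor in fibroblasts.

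Igfbp5 encodes a binding protein that attaches to extracellular matrix and is also cut by PAPP-A. In fibroblasts it lay at 12.84 with the Ccrl2+ secretome and 15.39 with the Ccrl2- secretome, against 11.72 with PBS. The Ccrl2- secretome array stood far above the other 2 fibroblast arrays, 12.7-fold above PBS, and 110 of 10057 genes were at least as far higher. The Ccrl2+ secretome array was 2.17-fold above PBS and 5.86-fold below the Ccrl2- secretome array. In cardiomyocytes Igfbp5 lay at 6.44 and 6.21, against 7.03 with PBS, values at or near the floor. Measured against the floor both secretome arrays were 1.39-fold below PBS. All 3 values lay under the control 95th percentiles of their arrays (10.22, 10.25 and 10.2), so this gap does not stand clear of background. The neighbour of Igfbp5 on chromosome 1 is Igfbp2, which showed neither difference in fibroblasts.

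Igfbp6 encodes a binding protein that prefers IGF2 to IGF1. In fibroblasts it lay at 11.96 with the Ccrl2+ secretome and 9.49 with the Ccrl2- secretome, against 10.56 with PBS. The PBS array was between the secretome arrays, with the Ccrl2+ array 2.64-fold above it and the Ccrl2- array 2.1-fold below it. The Ccrl2- and PBS values were both under their arrays' control 95th percentiles (10.69 and 10.74), so neither stands clear of background and these folds are uncertain. The secretome arrays differed by 5.54-fold, and 120 of 10144 genes (1.18%) were as far higher with Ccrl2+. The difference of -1.07 between the Ccrl2- secretome and PBS was -0.97 once a trend of the difference on the mean level was removed, under 2-fold. In cardiomyocytes Igfbp6 lay at 8.68 with the Ccrl2+ secretome and 9.2 with the Ccrl2- secretome, against 8.42, so there the Ccrl2- array was the highest, by 1.72-fold over PBS, with all 3 values below that percentile. Fibroblast markers were higher on the same cardiomyocyte array. Of 8 fibroblast markers on the array 5 were at least 2-fold higher with the Ccrl2- secretome than with PBS, with a median of 1.2, such as Col3a1 (10.93 against 8.78), and the log2 of the summed level of the markers was 16.38 against 15.88. In fibroblasts this sum was 19.34 with the Ccrl2+ secretome and 19.35 with the Ccrl2- secretome, against 19.47 with PBS, a sum carried by a few very high genes. Of the 8 markers 3 were at least 2-fold higher with the Ccrl2+ than with the Ccrl2- secretome in fibroblasts, as Igfbp6 and Igf1 were: Tcf21 (15.19 against 14.15), Lum (15.22 against 13.93) and Thy1 (12.29 against 10.59). The list as a whole did not follow them, as 4 markers were lower by less than 2-fold and the median was -0.01. The summed level of the epicardial markers ran with Igfbp6 there. Its log2 was 15.86 with the Ccrl2+ secretome and 14.12 with the Ccrl2- secretome, against 14.95 with PBS. Between the secretomes 3 of the 5 were at least 2-fold higher with Ccrl2+ (Upk3b, Msln and Upk1b). Wt1 was nearly level (8.1 against 7.87) and Krt19 was lower (6.41 against 7.2). The cardiomyocyte marker sum took the same order as Igfbp6 in fibroblasts. Its log2 was 17.1 with the Ccrl2+ secretome and 15.17 with the Ccrl2- secretome, against 16.17 with PBS. Between the secretomes 7 cardiomyocyte markers reached the floor and all lay higher with Ccrl2+, 5 of them by 2-fold or more, with a median of 1.48. Igfbp6 thus did not run with the epicardial list alone. The part of the markers of any of these lists in the Igfbp6 and Igf1 values was not tested.

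Igfbp2 encodes a binding protein with an integrin-binding motif. In cardiomyocytes it lay at 11.03 with the Ccrl2+ secretome and 10.4 with the Ccrl2- secretome, against 11.56 with PBS. Both secretome arrays lay below PBS, and the Ccrl2- array was 2.23-fold below it, a difference of -1.16 that only 42 of 10054 genes reached or passed in that direction. This was 1 of 10 IGF genes at 2-fold, where 1.53% of all genes were, 0.746% higher and 0.786% lower. With the Ccrl2+ secretome 0 of 10 were, where 0.839% of 10009 genes were, 0.21% higher and 0.629% lower. Between the secretomes 0 of the 9 past the floor were, where 0.31% of 9995 genes were, 0.13% higher and 0.18% lower. In fibroblasts Igfbp2 lay at 10.51 and 11.26, against 11.08, so the Ccrl2- secretome array was the highest of the 3 there.

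Igfbp7 encodes a binding protein of low affinity for IGFs that is made by vessels and fibroblasts. It was nearly level, at 18.33 with the Ccrl2+ secretome and 18.26 with the Ccrl2- secretome in fibroblasts, against 18.14 with PBS, and at 17.26 and 17.35 in cardiomyocytes, against 17.01.

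**Figure D3:**
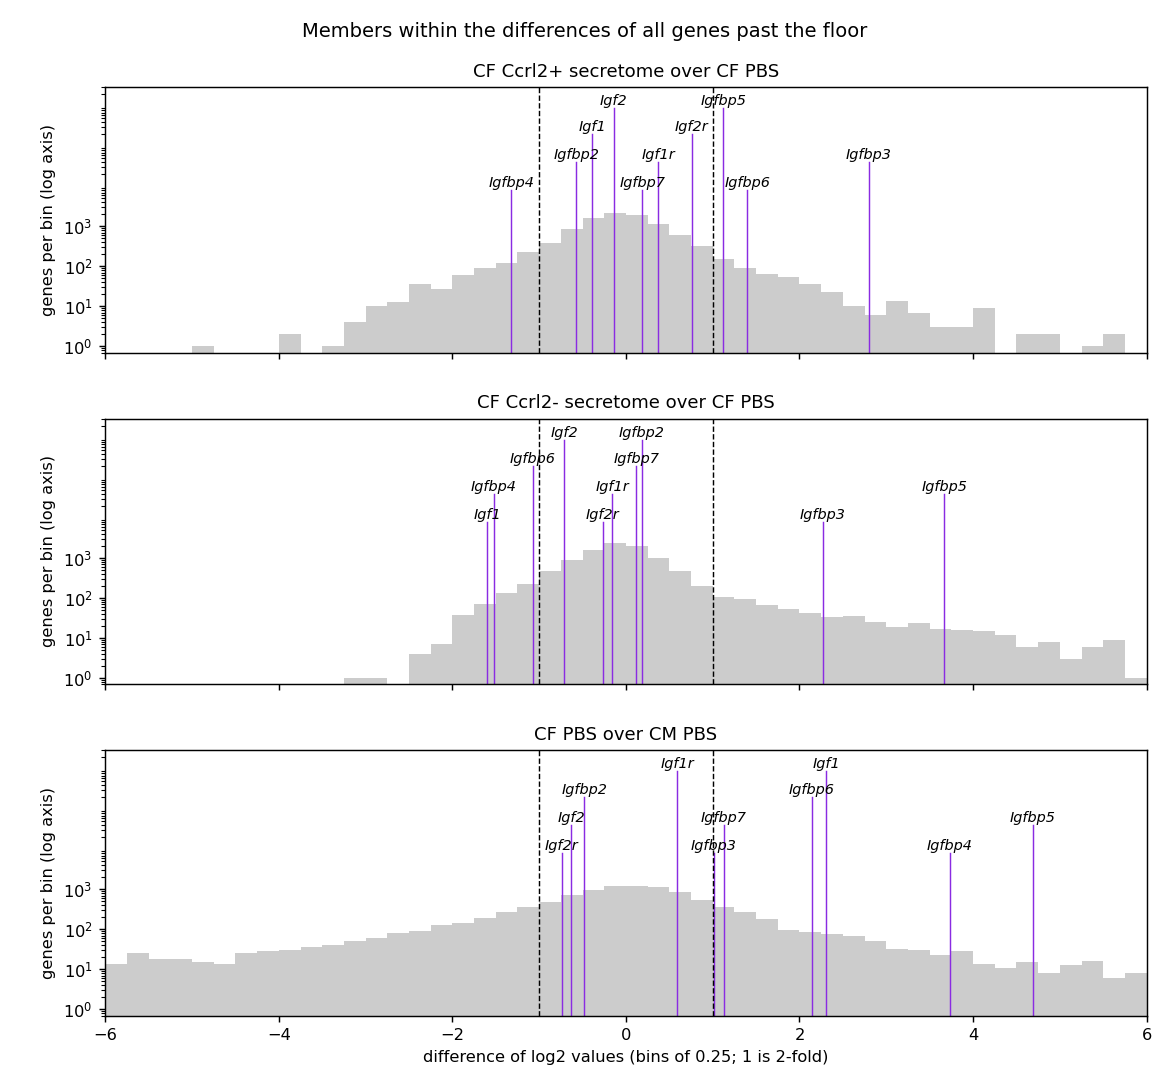
Grey bars count all genes past the floor per bin of 0.25 log2 units (vertical log axis), for 3 comparisons of 1 pair of arrays each, against the difference of log2 values, with the 10 IGF genes as lines. The horizontal axis stops at a difference of 6 in either direction, beyond which lie 5 genes for the Ccrl2+ secretome over PBS in CF, 32 for the Ccrl2- secretome over PBS in CF and 126 for CF over CM with PBS. With the Ccrl2- secretome Igfbp5 and Igfbp3 lie in the upper tail and Igf1 and Igfbp4 in the lower one.

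Fibroblasts and cardiomyocytes with PBS differed in the IGF system as well. Of the 10 genes, 6 were at least 2-fold higher in CF (Igf1, Igfbp3, Igfbp4, Igfbp5, Igfbp6 and Igfbp7) and 0 lower, where 13.9% of 10394 genes were higher and 16.9% lower, 30.8% in all. The median of the 10 was 1.07, against 0.01 over all genes. Negative controls differed by 2-fold between these arrays about as often (30.6% of those past the floor). The CM values of Igfbp3, Igfbp4, Igfbp5 and Igfbp6 were under that array's control 95th percentile (10.2), so their folds are those of the measured values and the CM level does not stand clear of background. Igfbp5 (11.72 against 7.03) was 25.8-fold higher in CF by the measured values, and 0.914% of genes were as far higher. Igfbp4 was 13.3-fold higher (13.24 against 9.51), Igf1 4.96-fold (15.52 against 13.21) and Igfbp6 4.41-fold (10.56 against 8.42). Igfbp7 was 2.19-fold higher (18.14 against 17.01), and Igfbp3 lay on the threshold at 2.01-fold (10.8 against 9.79). Igf2, Igf2r and Igfbp2 were lower in CF by 0.63, 0.74 and 0.48, all under 2-fold.

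The gap between the cell types was not alike in the 3 conditions, and the same limit holds for the CM values of these binding protein genes. With the Ccrl2- secretome Igfbp5 lay at 15.39 in CF and 6.21 in CM. With the floor in place of that CM value it was 458-fold higher in CF. Igfbp3 was 8.06-fold higher (13.07 against 10.06) and Igf1 2.33-fold higher (13.92 against 12.7). With the Ccrl2+ secretome Igfbp5 lay at 12.84 against 6.44, 78.2-fold higher against the floor. Igfbp3 was 17.5-fold higher (13.6 against 9.47) and Igfbp6 9.71-fold (11.96 against 8.68). The control 95th percentiles of these CM arrays were 10.25 with Ccrl2- and 10.22 with Ccrl2+, well above the floor. The Igfbp5 folds against the floor are therefore not lower bounds. Igfbp6 was 1.22-fold higher in CF with the Ccrl2- secretome (9.49 against 9.2). The cardiomyocyte arrays also carried endothelial transcripts. All 8 endothelial markers were at or above the floor there, with a log2 summed level of 17.31 with the Ccrl2+ secretome and 17.22 with the Ccrl2- secretome, against 17.23 with PBS, and 12.55, 11.87 and 12.55 in CF. The cells of each culture that carried the IGF transcripts were not identified here.

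Further genes of the pathway were counted from 6 lists. Of 5 other carriers and genes with an IGF-binding domain (Igfbp1, Igfals, Igfbpl1, Kazald1 and Esm1), 0 reached the floor on any array. Below the receptor, 22 of 23 signalling genes on the array were past the floor. With the Ccrl2+ secretome in fibroblasts the transcription factor gene Foxo3, which IGF signalling restrains, was 3.14-fold higher than PBS (8.41 against 6.76) and the PI3-kinase subunit gene Pik3cb 2.68-fold lower (9.45 against 10.87). With the Ccrl2- secretome 3 were at least 2-fold lower, each close to the threshold: Irs1, an adaptor of the receptor (7.52 against 8.53), the receptor-binding adaptor gene Grb14 (6.66 against 7.68) and Foxo1 (7.66 against 8.72). These values of Foxo3, Irs1, Grb14 and Foxo1, and Pik3cb with the Ccrl2+ secretome, lay below the control percentile of their arrays. That percentile was 10.67 with Ccrl2+, 10.69 with Ccrl2- and 10.74 with PBS. Such values do not stand clear of background, so these folds are uncertain. The insulin receptor gene Insr was 2.1-fold higher with the Ccrl2+ than with the Ccrl2- secretome (13.3 against 12.23). In cardiomyocytes 0 of the 37 pathway genes past the floor reached 2-fold between any pair of arrays. Of all genes past the floor only 0.31% to 1.53% did, so this count is near that share. Over all pathway lists in fibroblasts, of the 39 genes that reached the floor 4 passed 2-fold upwards and 4 downwards for the Ccrl2+ secretome over PBS, where 4.87% and 6.13% of all genes were. With the Ccrl2- secretome over PBS 0 of 38 were higher and 6 lower, where 6.18% and 4.83% of all genes were. Between the secretomes 7 of 39 were higher with Ccrl2+ and 2 lower, where 8.55% and 10.1% of all genes were.

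**Figure D4:**
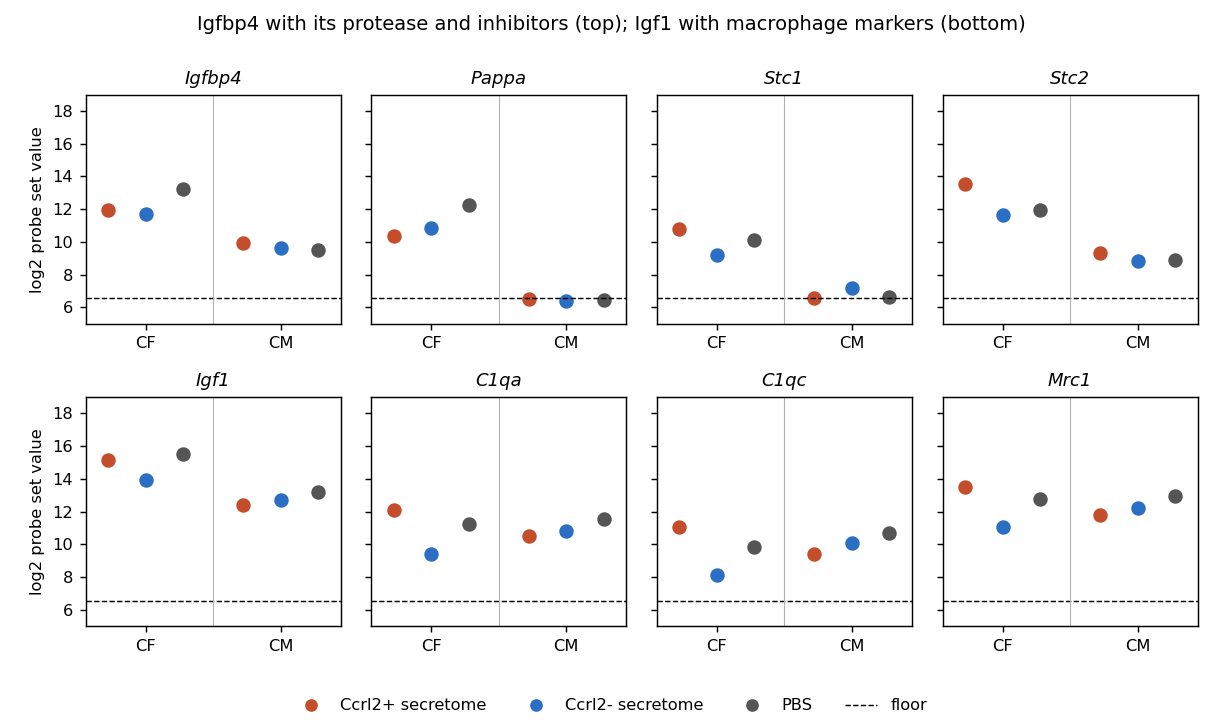
Log2 probe set values (vertical axis) on the 6 arrays, 1 point per array, for Igfbp4 with the genes of its protease and the protease inhibitors (top row) and for Igf1 with 3 macrophage markers (bottom row), with the floor of 6.55 dashed. In fibroblasts Igfbp4 and Pappa are lower on both secretome arrays than with PBS, and in cardiomyocytes Igf1 and the 3 macrophage markers are lower on both secretome arrays than with PBS. With the Ccrl2- secretome in fibroblasts, 5 of 10 macrophage markers were at least 2-fold below PBS and 3 at least 2-fold above. The 3 shown are among the 5. With the Ccrl2+ secretome in fibroblasts 7 of the 10 lay above PBS and 3 below, and the 3 shown are among the 7.

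The genes whose profiles over the 6 arrays lay closest to those of the 3 widest-ranging IGF genes were sought among 10778 other genes past the floor, by the Euclidean distance between mean-centred log2 values. Igfbp4 had close matches in Wnt5a, a signalling ligand gene, at a distance of 0.45, Pcyt1b at 0.49 and the Wnt pathway regulator gene Dact1 at 0.5. For Igfbp3 they were Adhfe1 (0.98), Tmem176a (1.0) and the xanthine dehydrogenase gene Xdh (1.08). Igfbp5 had no comparably close match, and the nearest were Gpm6b (2.74), the haptoglobin gene Hp (2.78) and Fndc1 (2.79). Hp lay at 9.92 with the Ccrl2+ secretome and 14.7 with the Ccrl2- secretome in fibroblasts, against 7.58 with PBS, the same order as Igfbp5. These distances rest on 6 arrays of 2 cell types and describe likeness only.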

How the data were processed

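Per the labels, biotin-labelled cRNA from 1 to 8 ug of total RNA was hybridised to Affymetrix arrays, 1 array for each of 6 groups. The submitters' processing notes name Affymetrix Expression Console as the software behind the deposited log2 values. Which version, summary method and genome build were used is not given in the sources used here. The log2 scale was read from the values, and the sorted arrays differ by 0.3 at most, so they had been brought to almost one distribution, and a shift shared by most genes would not be seen.

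Of 28846 probe sets 19572 had 1 symbol, 0 several and 9274 none in the platform annotation. The highest-mean probe set per symbol was used, leaving 19505 genes. Per comparison the log2 values of 2 arrays were subtracted, in 7 comparisons. A gene counted when its higher value reached 6.55 and the difference 2-fold. For a value below the floor a fold was also taken against the floor, which is no bound against the negative controls. No p-value was computed. Alternatives changed the threshold (1.5-fold, 3-fold), the floor (none, or 10.14, the 75th percentile), the scaling (a further quantile normalization, or removal of a loess trend of span 0.4), the probe sets (their mean) and low values (raised to the floor).

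All 10 IGF genes are named. Of 6 pathway lists up to 5 genes with the largest differences at 2-fold are named, of 7 marker lists up to 4 with the highest means, and for each of the 3 widest-ranging IGF genes the 3 nearest profiles. Genes named outside this rule (the markers C1qc, Csf1r, Cd14, Tcf21, Lum, Thy1 and Krt19, the other carriers and the mannose 6-phosphate genes) were chosen after their values were seen. Genes and lists were chosen with earlier results of these data known. Counting was checked on simulated differences of known size, put only into genes well above the floor. The simulated noise was set from the cardiomyocyte secretome arrays, so the check gives no rate of false calls for fibroblasts. Promoter sequences are those of RefSeq, build GRCm38.p6. Python 3.11.15, numpy 2.4.6, pandas 2.3.3, statsmodels 0.14.6 and matplotlib 3.10.9 were used.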

Additional observations from a re-analysis of the deposited data

Results flagged for a closer look

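Igfbp5 and Igfbp6 differed in opposite directions in the cell types, by 1.5-fold or more in the measured values, and that opposition drew attention to them. With the Ccrl2+ secretome over PBS, Igfbp5 differed by 1.12 in CF and by -0.59 in CM as measured. With the Ccrl2- secretome over PBS it differed by 3.67 in CF and by -0.82 in CM as measured. The CM secretome values of Igfbp5 lay below the floor, and against the floor both CM differences are -0.48 (1.39-fold), under 1.5-fold. All 3 CM values of Igfbp5 were also under the control 95th percentile of their arrays. Igfbp6 with the Ccrl2- secretome over PBS differed by -1.07 in CF and by 0.78 in CM, where fibroblast markers were also higher, and in both cell types the values compared were under the control 95th percentile of their arrays. With 1 array a group the difference between the cell types was not tested.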

How the results depend on the processing

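The counts of IGF genes at 2-fold in the 7 comparisons stayed within 1.5 times of their values when the floor was dropped or set higher (10.14), after a further quantile normalization, after removal of a loess trend, with probe sets averaged and with low values raised to the floor. Averaging could change nothing, since each of these genes had 1 probe set, and raising low values could touch only Igfbp5 in CM. The counts moved with the threshold, by construction. At 3-fold the Ccrl2+ secretome over PBS in CF gave 1 gene (Igfbp3) in place of 4, the Ccrl2- secretome over PBS 3 in place of 5, the Ccrl2+ over the Ccrl2- secretome 2 in place of 4, and the Ccrl2- secretome over PBS in CM 0 in place of 1. At 1.5-fold the CM comparisons gave 2 genes for the Ccrl2+ secretome over PBS in place of 0, 3 for the Ccrl2- secretome over PBS in place of 1, and 2 between the secretomes in place of 0. Of 280 single differences under 4 alternatives, 277 stayed within 0.25 and on their side of 2-fold, 0 reversed and 3 moved: Igfbp6 with the Ccrl2- secretome in CF to -0.97 and Igfbp3 in CF over CM with PBS to just under 1.0, both with the trend removed, and Igfbp5 with the Ccrl2- secretome in CM to -0.48 with values raised to the floor. The 70 differences under averaging were fixed in advance, as were those under raised values other than of Igfbp5 in CM. They therefore say nothing about stability. No paired analysis was possible because each group had 1 array. Values below the 95th percentile of negative controls, 15 of 60, are the least certain.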

Other observations

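Igf2 belongs to a group of imprinted genes that are known in mice to be expressed together during growth, and 5 of 6 listed partners were on the array. In fibroblasts Plagl1, a transcription factor gene of this group, was 2.55-fold lower with the Ccrl2+ secretome (12.16 against 13.51 with PBS) and 3.81-fold lower with the Ccrl2- secretome (11.58). Mest was 3.36-fold higher with the Ccrl2+ secretome (15.18 against 13.43) and 1.99-fold lower with the Ccrl2- secretome (12.44), so the secretome arrays differed by 6.68-fold. Cdkn1c, a cell cycle inhibitor gene, was 2.62-fold higher with the Ccrl2+ secretome when measured against the floor (7.94 against 5.6). Peg3 was 2.75-fold lower with the Ccrl2- secretome (10.81 against 12.27). Over the same arrays Igf2 itself stayed within 0.71 of PBS. With PBS, Mest was 36.5-fold lower in CF than in CM (13.43 against 18.62). Dlk1 was 4-fold higher in CF when measured against the floor (8.55 against 4.69). The Cdkn1c and Dlk1 values given here all lay below the control percentile of their arrays. That percentile was 10.67 in CF with Ccrl2+, 10.74 in CF with PBS and 10.2 in CM with PBS. The Cdkn1c and Dlk1 folds are therefore uncertain. In cardiomyocytes 0 of these partners reached 2-fold in any secretome comparison, where 0.31% to 1.53% of all genes did.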
